A study of Mus musculus with 8 samples.

Results

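The transcripts examined here encode cytokines that depend on nuclear factor kB (NF-kB) and proteins that restrain the same pathway. They come from 10 mouse genes. *Tnf*, *Il1a*, *Il1b*, *Il6* and *Il10* encode secreted cytokines, *Il1rn* the interleukin-1 receptor antagonist, *Nfkbia*, *Nfkbiz* and *Tnfaip3* intracellular regulators of NF-kB, and *Ptgs2* the inducible cyclooxygenase of prostaglandin synthesis. All probes annotated with 1 of these symbols were taken, 17 of the 45281 probes on the bead array and 10 of its 30789 symbols. The samples were thioglycollate-elicited peritoneal macrophages of C57/BL6 mice aged 8 weeks, cells that an irritant broth draws into the abdominal cavity. 4 samples had been incubated with acetylated LDL (Ac-LDL, 120 µg/ml), a modified lipoprotein that macrophages take up through scavenger receptors, and 4 were mock-treated controls, all for 24 h. Both groups had thioglycollate elicitation in common, and the labels name no other agent for either. Per the study's methods for such cells, non-adherent cells were washed off and medium conditioned by fibroblasts was used in culture. Replicates 1 and 2 of each group lay on the first array slide and replicates 3 and 4 on the second.

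In a resting macrophage, NF-kB dimers are held in the cytoplasm by inhibitory IkB proteins. Signals from Toll-like, tumour necrosis factor and interleukin-1 receptors activate the IkB kinase, IkB is degraded, and the dimers enter the nucleus and switch on inflammatory genes. Among these genes are those for their own inhibitors, so that new IkBα (from *Nfkbia*) and the ubiquitin-editing enzyme A20 (from *Tnfaip3*) end the response. IkBζ, from *Nfkbiz*, is a nuclear member of the family that many secondary response genes, *Il6* among them, need for their induction.

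Between 16679 and 17439 probes, or 36.8% to 38.5%, were detected per array. A detection P value of at most 0.05 places a probe above most, though not all, of the negative controls. Each intensity of the 17 probes was a mean over 22 to 70 beads, and the bead standard error of the tested ones was 1.58% to 7.50% of the intensity. The macrophage markers *Lyz2* and *Cd68* were bright, at 14.73 and 13.06 on the log2 scale in controls, and 8 of 8 macrophage markers were tested. Of these, 5 were higher and 3 lower with Ac-LDL, the largest changes being *Fcgr1* at 0.61, *Mertk* at 0.56 and *Cd14* at -0.48 on the log2 scale. *Mertk* alone was called, and with the replicate block alone (limma adjusted p = 0.0364). The part of these markers in the results below was not tested. Of 6 fibroblast and mesothelial markers on the array, 5 were tested, among them *Dcn* at 13.21, *Upk3b* at 11.37 and *Col1a1* at 9.85 in controls. The untested one, the mesothelial marker *Msln*, was detected on 3 arrays and averaged 4.69 in controls. *Dcn* makes up most of the summed level of this list, and by limma its 5 tested genes were 2 higher and 3 lower with Ac-LDL, the largest changes being *Col1a2* at -0.23 (limma adjusted p = 0.887, groups not overlapping) and *Col3a1* at -0.21. The summed level of these markers was 13.5 to 14 on control and 13.7 to 13.8 on Ac-LDL arrays, so transcripts typical of other cells of the cavity were measured in both groups. Of 6 neutrophil markers on the array, *S100a8* alone was tested, with means of 9.20 in control and 9.44 in Ac-LDL samples. Its groups did not overlap (limma adjusted p = 0.845), as was so for 3.80% of all tested probes. *S100a9*, *Camp*, *Ngp* and *Mpo* were detected on 0 arrays and *Elane* on 1, so the summed level rests mostly on *S100a8*. The summed level of the neutrophil list was 9.40 to 9.49 on control and 9.57 to 9.70 on Ac-LDL arrays, and its part in the results below was not tested. In RNA from a whole culture, fewer cells of a type and less RNA per cell cannot be told apart.

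Of the 10 genes, 6 had a tested probe (*Tnf*, *Il1a*, *Il1rn*, *Nfkbia*, *Nfkbiz* and *Tnfaip3*), and *Il1b*, *Il6*, *Il10* and *Ptgs2* did not. A probe was tested when detected on at least 4 of the 8 arrays, which 11 of the 17 probes were. *Il1b*, whose product is the secreted interleukin-1β, was detected on 0 of 8 arrays by its probe (ILMN_2777498), with detection P values of 0.255 to 0.885. Both probes of *Ptgs2* were likewise detected on 0 arrays, with detection P values from 0.0705 to 0.997. The single *Il6* probe (ILMN_1243601) passed on control replicate 1 alone, with a detection P value of 0.0406. *Il10*, an anti-inflammatory cytokine, passed on 1 control and 2 Ac-LDL arrays (ILMN_1238505). For *Il10* the control log2 intensities were 4.39, 4.54, 4.79 and 4.68 and the Ac-LDL ones 4.82, 4.72, 4.60 and 5.0. The lowest detected probe of an array lay between 4.74 and 4.81. These 4 genes were not well above background in either group, so that no fold change is given and a change in them was not measurable with these probes.

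**Figure D1:**
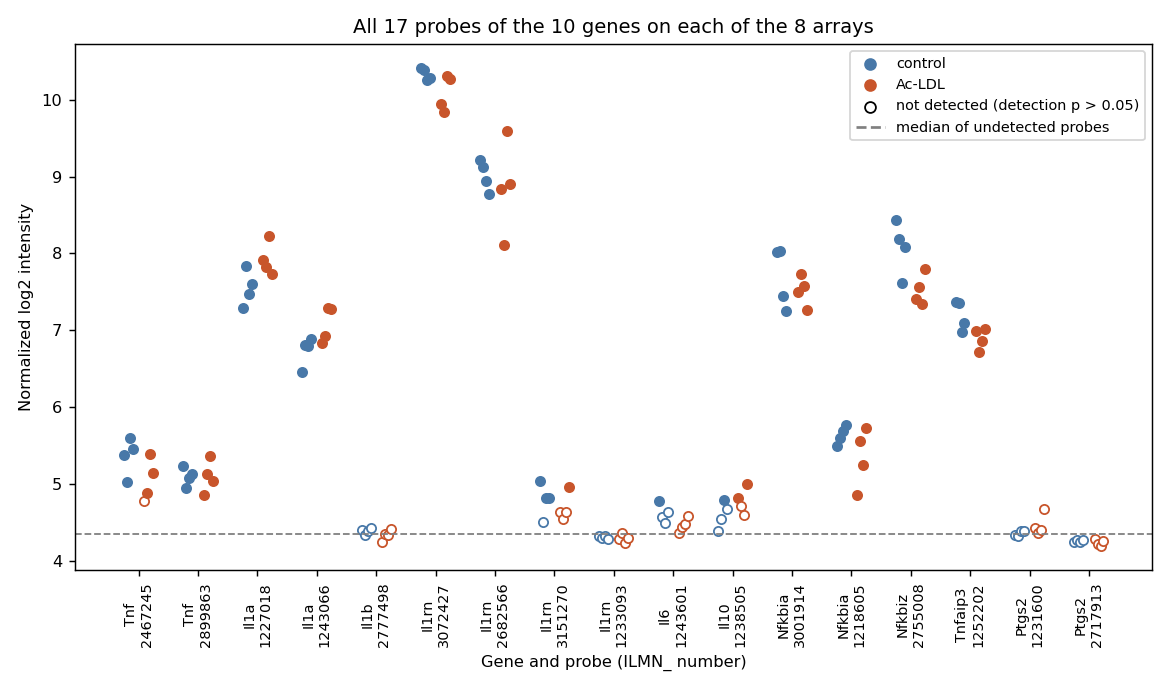
Normalized log2 intensity (vertical axis) of each of the 17 probes (horizontal axis, gene and probe number) on the 8 arrays, with filled points for arrays on which the probe was detected and open points for those on which it was not. Blue points are control and orange points Ac-LDL arrays, the dashed line is the median of undetected probes, and the probes of *Il1b*, *Ptgs2*, *Il6* and *Il10* lie near it in both groups, while levels of different probes are not comparable.

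Every one of the 6 measured genes overlapped between Ac-LDL and control arrays, and none was called. In limma's moderated test over 17122 probes, 0 of the 11 probes had a Benjamini-Hochberg adjusted p under 0.05, against 7 of all tested probes (0.0409%). Blocking by replicate number left 0 of 11 against 76 of all (0.444%), and blocking by slide 0 of 11 against 55 (0.321%). An unadjusted p under 0.05 was found for 4 of the 11 probes, 2 of *Il1a* that were higher and those of *Nfkbiz* and *Tnfaip3* that were lower with Ac-LDL, and for 5.20% of all tested probes. In the fits blocked by replicate or slide this count was 6 and 6, where the shares of all probes were 13.8% and 12.1%. The methods' t-test gave 2 such probes, against 6.07% of all, and 0 after adjustment. Non-overlapping groups were found for 0 of the 11 probes and for 3.80% of all probes. The mean was lower with Ac-LDL for 9 of the 11 probes, against 49.6% of all tested probes, and the median log2 fold change was -0.17 over the 11 and 0.00 over all. Probes of 1 gene share a transcript, so the 11 are not independent values.

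*Il1a* was the cytokine with a higher mean in Ac-LDL-treated macrophages, by a log2 fold change of 0.37 (1.29-fold). Its product, interleukin-1α, is active as an uncleaved precursor and can stay attached to the cell. The leading probe, the brightest tested one of a gene, was ILMN_1227018, whose 50 bases begin at base 282 of the annotated transcript and are shown because the gene's value rests on them.
Il1a probe ILMN_1227018: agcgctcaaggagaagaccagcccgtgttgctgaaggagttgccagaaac
Its normalized log2 intensity was 7.29, 7.83, 7.47 and 7.60 on control arrays 1 to 4 and 7.91, 7.82, 8.23 and 7.73 on Ac-LDL arrays 1 to 4. The groups overlapped because control replicate 2 stood above 2 of the Ac-LDL arrays, and Ac-LDL was higher in 3 of 4 pairs of the same number. The log2 fold change of 0.37 had a standard error (SE) of 0.14 and a 95% interval of 0.05 to 0.69 (limma adjusted p = 0.880; exact two-sided permutation test, p = 0.0857). The second probe of *Il1a* (ILMN_1243066) read 6.45, 6.80, 6.80 and 6.89 in control and 6.84, 6.93, 7.29 and 7.28 in Ac-LDL samples. It was higher in 4 of 4 pairs, and only Ac-LDL replicate 1 reached down into the control range. Its log2 fold change of 0.35 (SE 0.14, limma adjusted p = 0.888; exact two-sided permutation test, p = 0.0571) lay close to that of the leading probe. Within slides the leading probe gave 0.30 on the first and 0.44 on the second, and the second probe 0.26 and 0.44. Both probes thus had the higher mean with Ac-LDL on both slides, but the sizes depended on single arrays. Without control replicate 1 the first-slide values were 0.03 for the leading and 0.08 for the second probe. They were 0.57 and 0.43 without control replicate 2. The second-slide value of the leading probe was 0.19 without Ac-LDL replicate 3 and 0.69 without Ac-LDL replicate 4.

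*Tnf*, the cytokine that gives the tumour necrosis factor family its name, was dim, and its probes differed in what they showed. The brighter probe (ILMN_2467245) was detected on 4 control and 3 Ac-LDL arrays, with log2 intensities of 5.38, 5.03, 5.60 and 5.45 in control and 4.79, 4.89, 5.39 and 5.14 in Ac-LDL samples. Ac-LDL was lower in 4 of 4 pairs, although the groups overlapped. Its log2 fold change was -0.31 (SE 0.16, 95% interval -0.67 to 0.04, limma adjusted p = 0.960; exact two-sided permutation test, p = 0.171), with -0.37 on the first and -0.26 on the second slide. At this low intensity the value moved with the background step, to -0.19 with no background correction and -0.16 with an offset of 50. The other probe (ILMN_2899863), detected on all 8 arrays, read 5.24, 4.95, 5.08 and 5.13 in control and 4.86, 5.13, 5.36 and 5.04 in Ac-LDL samples. It was lower in 2 pairs and higher in 2, with a log2 fold change of 0.00 and a 95% interval of -0.27 to 0.27. The annotation gives the 2 *Tnf* probes coordinates on chromosome 17 that are 0.529 Mb apart, more than the length of the gene. These coordinates are therefore not used to place the probes. Whether the coordinates come from more than 1 genome build was not tested. In the annotated transcript, given in different versions for each probe, the probes begin at bases 1187 and 1138, which are 49 bases apart.

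*Il1rn* was detected on all 8 arrays by 2 probes, and by 1 of them its change differed more between the slides than that of any other tested member probe. The receptor antagonist it encodes occupies the interleukin-1 receptor without signalling. Leading probe ILMN_3072427 read 10.41, 10.39, 10.25 and 10.28 on control arrays and 9.94, 9.83, 10.31 and 10.27 on Ac-LDL arrays. The 2 Ac-LDL arrays of the first slide were the lowest of the 8, while those of the second slide lay among the controls. Over all arrays the log2 fold change was -0.25 (SE 0.12, 95% interval -0.52 to 0.03, limma adjusted p = 0.949; exact two-sided permutation test, p = 0.143). Within the first slide it was -0.51 (SE 0.10, limma adjusted p = 0.0810) and within the second 0.02 (SE 0.10, adjusted p = 0.973).

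A second *Il1rn* probe (ILMN_2682566), annotated at base 29 of another transcript variant, gave 9.22, 9.12, 8.94 and 8.77 in control and 8.83, 8.11, 9.59 and 8.90 in Ac-LDL samples. Both the lowest and the highest of the 8 arrays were Ac-LDL arrays, replicate 2 on the first slide and replicate 3 on the second. Its log2 fold change was -0.15 overall (limma adjusted p = 0.990), -0.70 on the first slide and 0.39 on the second. These values rested on single arrays. Without Ac-LDL replicate 2 the overall value turned to 0.10 and the first-slide value was -0.34, without Ac-LDL replicate 1 the first-slide value was -1.06, and without Ac-LDL replicate 3 the second-slide value was 0.05. Another *Il1rn* probe (ILMN_3151270) was near the detection limit, with 3 control and 1 Ac-LDL arrays detected and a log2 fold change of -0.10 (limma adjusted p = 0.988). It was lower in 2 pairs and higher in 2. The remaining *Il1rn* probe (ILMN_1233093) was detected on 0 arrays.

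**Figure D2:**
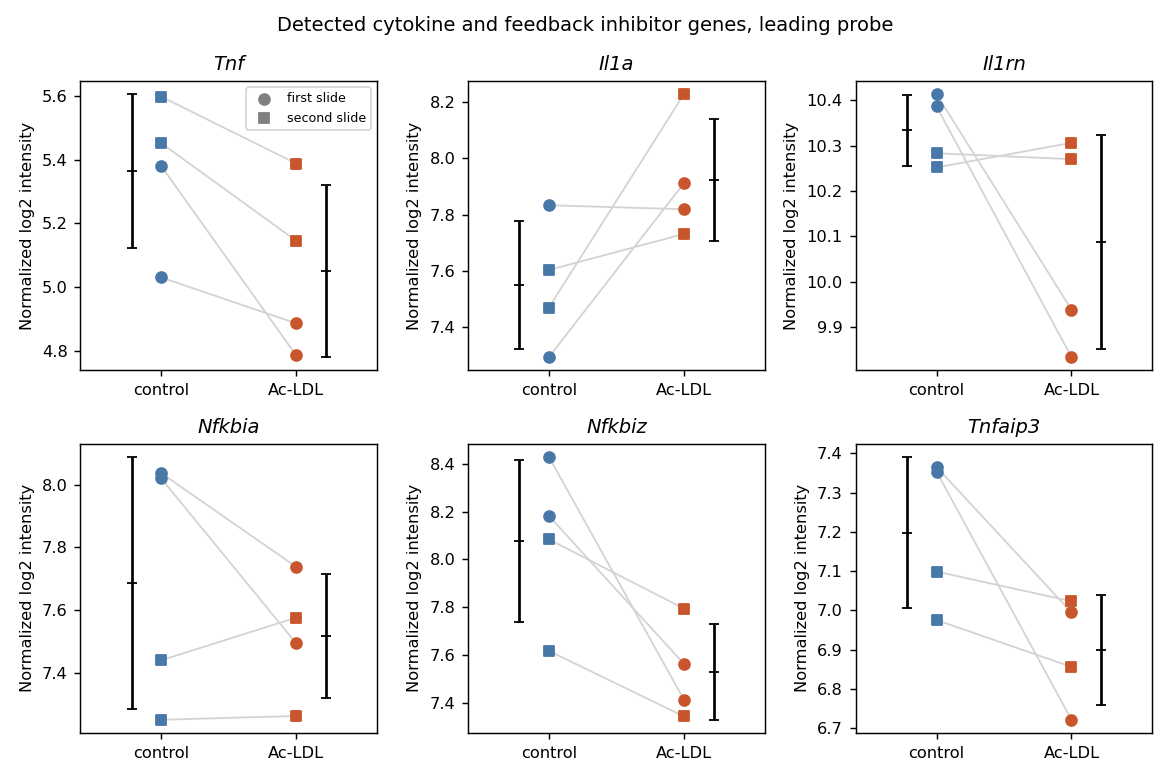
Normalized log2 intensity (vertical axis, a separate scale for each gene) of the leading probe of the 6 measured genes on the 4 control and 4 Ac-LDL arrays, with circles for the first and squares for the second slide, grey lines joining arrays of the same replicate number, and bars for the mean ± SD (n = 4). *Nfkbiz*, *Tnfaip3* and *Tnf* were lower with Ac-LDL in 4 of 4 pairs, *Il1a* was higher in 3 of 4, and for *Il1rn* and *Nfkbia* the Ac-LDL mean was the lower one on the first slide alone.

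Among the feedback regulators, *Nfkbiz* had the largest change of the 6 measured genes, a log2 fold change of -0.55 (1.46-fold lower). Its probe (ILMN_2755008, annotated on chromosome 16 from 55811538 to 55811587 in a build that is not named) was detected on all 8 arrays. On control arrays 1 to 4 it read 8.43, 8.18, 7.62 and 8.08, and on Ac-LDL arrays 7.41, 7.56, 7.34 and 7.79. Control replicate 3 was the single control array inside the Ac-LDL range, and the pairs differed by -0.27 to -1.02. The standard error was 0.17 and the 95% interval -0.93 to -0.17, with an adjusted p of 0.764 from limma, a rank of 203 by p among 17122 probes, and p = 0.0571 in the exact two-sided permutation test. Blocking by replicate number gave 0.132 as the limma adjusted p. Control arrays averaged 8.08 ± 0.34 and Ac-LDL arrays 7.53 ± 0.20 (mean ± SD, n = 4 each). As deposited, before any normalization, the *Nfkbiz* intensities were 423, 283, 234 and 329 on control and 177, 202, 192 and 233 on Ac-LDL arrays. On that scale the groups did not overlap, though control replicate 3 and Ac-LDL replicate 4 almost met.

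*Tnfaip3* was lower with Ac-LDL by mean, at a log2 fold change of -0.30 with an SE of 0.12. Its probe (ILMN_1252202, annotated on chromosome 10 from 18721010 to 18721059, build not named) read 7.37, 7.35, 6.98 and 7.10 in control and 6.99, 6.72, 6.86 and 7.02 in Ac-LDL samples. Ac-LDL was lower in 4 of 4 pairs, but the controls of the second slide fell within the Ac-LDL range or just above it. The 95% interval was -0.57 to -0.03 (limma adjusted p = 0.887, 0.281 with the replicate block; exact two-sided permutation test, p = 0.0857).

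By its leading probe, *Nfkbia* differed more between the slides than between the groups, by mean. Its leading probe, ILMN_3001914, begins at base 606 of the annotated transcript and is shown because the control values it gave were the most spread of the leading probes.
Nfkbia probe ILMN_3001914: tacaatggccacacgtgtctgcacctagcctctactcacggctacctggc
Log2 intensities were 8.02, 8.04, 7.44 and 7.25 on control arrays and 7.49, 7.74, 7.58 and 7.26 on Ac-LDL arrays. Controls of the second slide were 0.68 lower than those of the first (mean difference -0.68), whereas the Ac-LDL arrays of the slides differed by -0.20. The log2 fold change of -0.17 (SE 0.19, 95% interval -0.59 to 0.25, limma adjusted p = 0.986; exact two-sided permutation test, p = 0.514) was within the spread of the arrays. It was -0.06 without control replicate 1, -0.05 without control replicate 2, -0.08 without Ac-LDL replicate 4 and -0.31 without control replicate 4. A dimmer probe (ILMN_1218605) read 5.50, 5.60, 5.69 and 5.77 in control and 4.86, 5.56, 5.25 and 5.73 in Ac-LDL samples. It was lower in 4 of 4 pairs, by little in replicates 2 and 4, with a log2 fold change of -0.29 (SE 0.17, limma adjusted p = 0.961; exact two-sided permutation test, p = 0.229). By this probe the change was -0.34 on the first slide and -0.24 on the second. The second slide was higher than the first here, by 0.18 in control and 0.28 in Ac-LDL means, opposite to the leading probe. Lower values in all 4 pairs were found for 4 of the 11 probes, those of *Nfkbiz* and *Tnfaip3* and 1 each of *Nfkbia* and *Tnf*, against 10.3% of all tested probes.

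The promoters of *Nfkbia*, *Tnfaip3* and *Il6* are shown because they hold a match to the NF-kB consensus close to the start site. RefSeq promoters (GRCm38.p6, 250 bases before to 50 after the start) were available for 8 of the 10 genes, all but *Il10* and *Nfkbiz*, with 11 start sites. The 100 bases just upstream of the start are printed 5′ to 3′ on the gene's strand, and capitals mark matches to the NF-kB consensus on either strand.
Nfkbia, chr12:55492648-55492747, minus strand: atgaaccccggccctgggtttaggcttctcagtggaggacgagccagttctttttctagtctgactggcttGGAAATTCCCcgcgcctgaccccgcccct
Tnfaip3, chr10:19015411-19015510, minus strand: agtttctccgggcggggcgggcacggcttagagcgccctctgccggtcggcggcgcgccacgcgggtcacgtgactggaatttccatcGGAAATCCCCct
Il6, chr5:30013014-30013113, plus strand: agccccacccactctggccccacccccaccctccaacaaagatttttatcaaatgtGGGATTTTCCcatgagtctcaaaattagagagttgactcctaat
The match began 29 bases before the start in *Nfkbia*, 12 in *Tnfaip3* and 44 in *Il6*. *Tnfaip3* had another, which began 125 bases before the start. On both strands, the consensus was in 8.46% of 32851 promoters of the same length and in 3 of the 11 member promoters (1 each of *Il6*, *Tnfaip3* and *Nfkbia*). TATAAA was in 13.6% of promoters and in 6 of the 11 member promoters, at 29 to 32 bases before the start in *Tnf*, *Il1b* and *Il1a*. In *Il1rn* and *Nfkbia* it lay past the start on the opposite strand, from bases 15 and 20. In *Tnfaip3* it began 225 bases before the start. The printed windows were chosen after the matches were seen, and a match describes the letters of the window. Of the genes that hold the consensus, *Nfkbia* and *Tnfaip3* were measured and *Il6* was not well above background.

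Within the first slide the changes were larger than within the second for most of the 11 probes. On the first slide 9 of 11 had the lower mean with Ac-LDL (median change -0.37 on the log2 scale), against 50.5% of all tested probes, and on the second 5 of 11 (median 0.02), against 49.2%. The medians over all probes were 0.00 on each slide. *Nfkbiz* was at -0.82 (SE 0.20) on the first slide and -0.28 on the second, and *Tnfaip3* at -0.50 (SE 0.13) and -0.10. The second-slide *Nfkbiz* value depended on single arrays, from -0.05 without control replicate 4 to -0.52 without control replicate 3. Leaving out a first-slide array gave first-slide *Nfkbiz* values from -0.69 to -0.94. Second minus first slide, the *Nfkbiz* means differed by -0.46 in control and 0.08 in Ac-LDL arrays. The leading *Nfkbia* probe was at -0.41 on the first slide and 0.07 on the second. The 2 Ac-LDL and 2 control arrays of a slide did not overlap for 7 of 11 probes on the first slide, where 45.6% of all probes did not, and for 3 of 11 on the second, where 36.7% did not.

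None of these within-slide changes was called. By limma with a mean for each group on each slide, 0 of 11 probes had an adjusted p under 0.05 on the first slide (0.327% of all probes), 0 on the second (0.204%) and 0 in the test of the difference between slides (0%). An unadjusted p under 0.05 was found for 6 of 11 on the first slide (13.5% of all), for 1 of 11 on the second, a probe of *Il1a* (7.41% of all), and for 3 of 11 in the difference (8.38% of all). Those 3 were the 2 brighter *Il1rn* probes, with differences of 0.53 and 1.09 between slides, and the leading *Nfkbia* probe with 0.49, and their adjusted p was at least 0.483. For both *Il1rn* probes the means had opposite signs on the slides.

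The first-slide calls depended on the normalization. With no background correction, where 1.44% of all probes were called on the first slide, the leading *Il1rn* probe was among them (-0.50, limma adjusted p = 0.0256). With an offset of 50, where 1.75% of all were, *Nfkbiz* was called as well (-0.72, limma adjusted p = 0.0494). With median in place of quantile normalization, *Nfkbiz* (-0.94, limma adjusted p = 0.00615) and the second *Il1rn* probe (-0.82, adjusted p = 0.0392) were called, as were 1.34% of all probes, at a median shift of all tested probes of -0.09 on that slide.

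**Figure D3:**
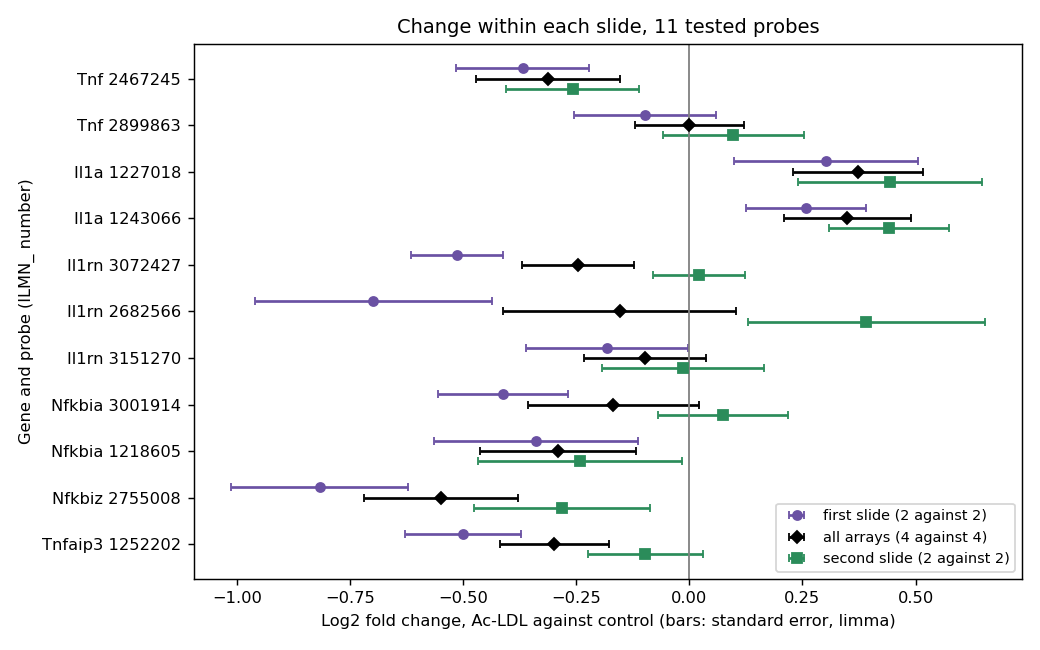
Log2 fold change of Ac-LDL against control (horizontal axis) for each of the 11 tested probes (vertical axis), over all arrays (black diamonds) and within the first (purple circles) and second slide (green squares), with bars for limma's standard error. The first-slide value lies left of the second-slide value for all 11 probes, with the widest gap for *Il1rn* ILMN_2682566 (-0.70 and 0.39), and *Il1a* lies right of 0 on both slides.

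Other genes of the pathway were higher about as often as they were lower with Ac-LDL. Of 62 further genes in 7 roles, 61 had a probe and 55 a tested one. By the brightest tested probe, 26 were higher and 29 lower with Ac-LDL, the median log2 fold change was -0.02, and 0 were called by limma, whether unblocked or blocked by replicate or by slide. An unadjusted p under 0.05 was found for 1 of them without a block, 11 with the replicate block, 10 with the slide block and 1 by the methods' t-test. These are 1.82%, 20%, 18.2% and 1.82% of the 55, where the shares of all tested probes were 5.20%, 13.8%, 12.1% and 6.07%. That 1 gene was *Irak4*, a kinase downstream of Toll-like and interleukin-1 receptors, at a log2 fold change of 0.28 (SE 0.11, limma adjusted p = 0.888). Its groups did not overlap, which was so for 1 of the 55 genes and for 3.80% of all tested probes.

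For each role the ends of the range are given. Among the NF-kB subunits, *Nfkb1* (precursor of p50) was at 0.02 and *Relb*, of the non-canonical pathway, at -0.37, with the 4 tested subunits at a median of -0.20. The *Relb* change was -0.65 on the first slide and -0.10 on the second, the same order as for *Nfkbiz*. *Nfkb2*, at -0.02 and -0.35, and *Rela*, at -0.19 and -0.23, had the larger fall on the second slide. *Nfkb1* was at 0.04 and 0.01. Of the other IkB proteins, *Nfkbie* was at 0.16 and *Nfkbib* at -0.09. Among kinases, *Ikbke*, an IkB kinase relative, was at 0.28 and *Map3k7*, which encodes TAK1, at -0.27. *Traf1* was the lowest adaptor at -0.22. Of 12 other inhibitors tested, 9 were lower, from *Tnip2*, an A20-binding protein, at -0.29 to *Zfp36*, which destabilises cytokine mRNA, at 0.10. Among receptors *Il10ra*, the ligand-binding chain for interleukin-10, was at 0.45 and *Il1r1*, the signalling interleukin-1 receptor, at -0.11. *Ptger2*, a prostaglandin E2 receptor, was at 0.44 and *Adam17*, the protease that sheds tumour necrosis factor, at -0.13. None of these genes was called in any of the fits, and the lowest adjusted p among the 55 was 0.112, with the replicate block.

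**Figure D4:**
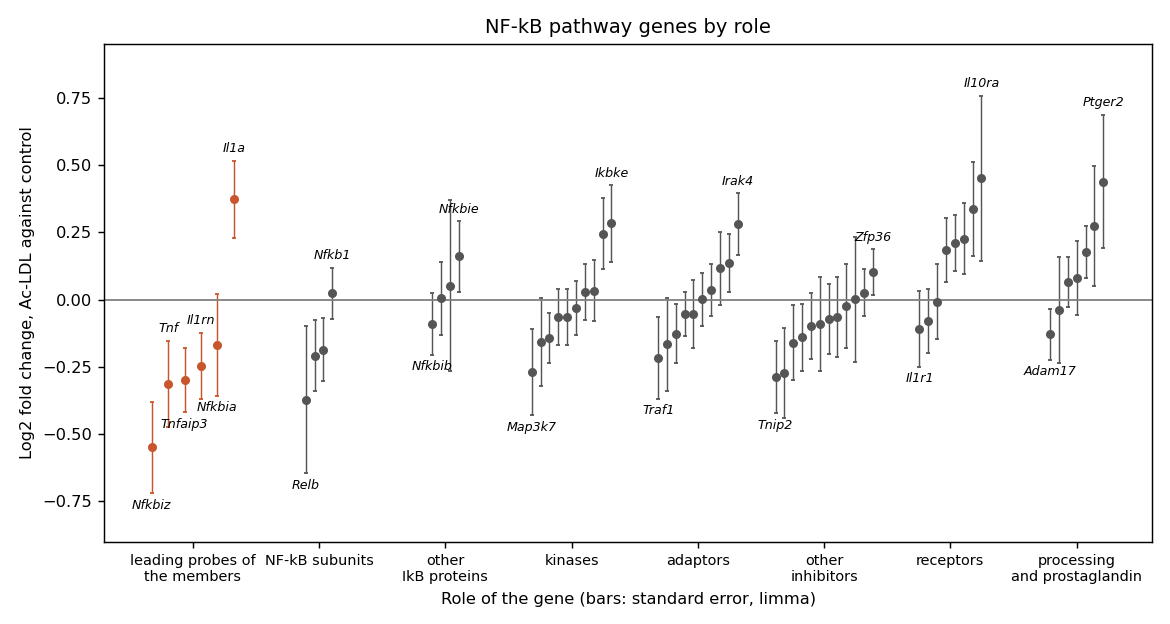
Log2 fold change of Ac-LDL against control (vertical axis) with limma's standard error for the leading probes of the 6 measured cytokine and regulator genes (orange) and for 55 other pathway genes by role (grey, horizontal axis), labelled at the highest and lowest gene of each role. The 55 genes range from -0.37 (*Relb*) to 0.45 (*Il10ra*) around a median of -0.02, and 5 of the 6 orange points lie below 0.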

How the data were processed

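RNA of 8 macrophage samples (4 Ac-LDL, 4 control) was measured on Illumina MouseWG-6 bead arrays. The authors deposited, for each probe, the mean bead intensity with no normalization, its bead standard error as an intensity, a detection p-value that ranks the probe against negative controls, and the number of beads. The normalized values of the study were not used here, and no genome build is named in the annotation columns.

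Intensities were processed with limma 3.58.1 in R 4.3.3: normexp background correction with negative controls inferred from the detection p-values, offset 16, quantile normalization and log2 (neqc). A probe was tested if 4 or more of the 8 arrays detected it (p-value of 0.05 or less). The 17122 such probes went into limma's moderated test, with Benjamini-Hochberg adjustment over all of them, and were called at an adjusted p under 0.05. Changes within slides came from 1 model with a mean for each group on each slide. Exact permutation tests used the 70 assignments of the arrays, and the smallest p they can give is 0.0286. Data were simulated for the comparison of Ac-LDL with control, with 200 of 17122 probes changed. Of changes of 1 on the log2 scale 80% were recovered, and 97% of changes of 2, with 7 unchanged probes called. Smaller changes were not simulated, so their recovery is not known. The largest change of the measured genes, -0.55, was among these smaller sizes. Simulated arrays varied independently, with no slide or replicate effect. The number of arrays limits the precision.

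The labels number biological replicates 1 to 4 in both groups. Deviations from the group means correlated between arrays of the same number (r = 0.579, 0.479, 0.468 and 0.629 across probes, which are not independent replicates). Between arrays of different numbers r was -0.546 to 0.447. Arrays of the same number also shared a slide, and the part of the slide in these correlations was not tested. The numbers were taken as pairs in an alternative fit. Nothing else in the sources used here says which cultures or animals the samples came from, so the p-values measure the spread between these samples.

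The members, the pathway list and the marker lists were chosen with earlier results of these data known. All members are described by every probe, led by the brightest tested one. From the pathway list, the gene with the largest rise and the largest fall of each role is named. The summed level of a marker list is the log2 of its summed linear values. Alternatives were a replicate or slide block, other background corrections, normalizations and detection filters, the methods' t-test, and leaving out each array.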

Additional observations from a re-analysis of the deposited data

How the results depend on the processing

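The log2 fold changes of the 6 leading probes kept their direction in the 72 of 72 alternative values that could move (other corrections or normalizations, or 1 array left out), and 0 of 101 alternative values were called. The other alternatives change the test and not the fold change. The counts of members called and of pathway genes called over all arrays were 0 in all 17 alternatives. The count of all probes called was 7 and moved to 76 with the replicate block, 55 with the slide block, 26 with median normalization, 19 on the deposited intensities without correction or normalization, 0 with no detection filter (2290 at an unadjusted p under 0.05) and 0 with the methods' t-test (1039 at an unadjusted p under 0.05). Leaving out 1 array gave 0 to 15 calls: 15 without control replicate 2, 1 without Ac-LDL replicate 4, and 0 without control replicate 4 or without Ac-LDL replicate 1, 2 or 3.

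The alternatives for counts within slides and for overlap, and the use of deposited intensities, were chosen after seeing the data. On the first slide 1 member probe was called with no background correction, 2 with an offset of 50, 2 with median normalization and 3 on the deposited intensities (*Nfkbiz* and the 2 brighter *Il1rn* probes), where 246, 300, 229 and 314 of all probes were called, against 56 as reported. A difference between slides was called for 1 member probe on the deposited intensities, *Il1rn* ILMN_2682566 (0.99, limma adjusted p = 0.0324), and for 24 of all probes. These intensities had a median log2 fold change of -0.10 over all tested probes. Groups did not overlap for 2 members with median normalization (*Il1rn* and *Tnfaip3*, 4.19% of all probes). On the deposited intensities this was so for 2 (*Nfkbiz* and *Tnfaip3*, 4.58% of all). When 1 array was left out, groups did not overlap for 0 to 2 members and for 5.21% to 7.10% of all probes. These members were *Nfkbiz* and *Tnfaip3* without control replicate 3, and *Nfkbiz* without Ac-LDL replicate 4. The leading *Il1a* probe was another, without control replicate 2. So was the second *Il1a* probe, without control replicate 4 or without Ac-LDL replicate 1. The cause was not tested. Replicate or slide blocks changed no call of a member or pathway gene. With 1 array left out, the lone array of its group on that slide is assumed to vary like the others. Dim probes limit what could be measured for *Tnf*, *Il1b*, *Il6*, *Il10* and *Ptgs2*.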
